A study of Mus musculus with 5 samples.

Results

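Nlrp genes encode members of the NLR family, cytosolic proteins with a nucleotide-binding domain and leucine-rich repeats. In immune and epithelial cells several of them, such as NLRP3, NLRP1 and NLRP6, assemble inflammasomes that activate caspase-1. In the mouse another branch, with the Nlrp4 and Nlrp9 genes, Nlrp2, Nlrp5 and Nlrp14, is known for expression in oocytes and early embryos, where NLRP5 belongs to the subcortical maternal complex. These genes were followed here in mouse embryonic stem cells, which are grown from the early embryo and can form every tissue of the body.

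The members are the gene symbols that start with Nlrp and a digit and that held at least 20 counts over all exon bins and the 5 libraries. There were 9 of them among 16 Nlrp symbols with rows, and among 24538 symbols and assembly IDs in all. They are Nlrp4a, Nlrp4c and Nlrp4e of the Nlrp4 cluster, Nlrp9c of the Nlrp9 cluster, the pseudogene Nlrp5-ps, and Nlrp1a, Nlrp6, Nlrp10 and Nlrp12. They were chosen by their total counts over both groups, so those totals are a description. Nlrp1a lay just inside the limit with 20 counts. Nlrp5 and Nlrp2 lay just outside with 13 and 10 counts. Nlrp4c was chosen for its rise in the comparison below, so its values are given without a test.

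The study compared 2 libraries of stem cells in which the −45 super-enhancer of the pluripotency gene Nanog had been deleted (deleted 1 and 2) with 3 libraries of wildtype cells (wildtype 1 to 3). Super-enhancers are stretches of closely spaced enhancers. Per the labels, cells received ethanol vehicle or 4-hydroxytamoxifen for 6 days, and polyadenylated RNA was sequenced. The design text gives 3 replicates per condition, and a further deleted library was not analysed here. The labels tie neither treatment to a library and do not say whether libraries came from separate cultures or clones, so genotype and treatment cannot be told apart and the p-values rest on a spread among libraries that may be technical.

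Bin counts totalled 93574214 and 99133883 in deleted 1 and 2 and 125183725, 114838177 and 213042064 in wildtype 1, 2 and 3. One count was worth 0.00469 to 0.0107 CPM, counts per 1000000 counts of the library, and 3 counts 0.0141 to 0.0321 CPM. Wildtype 3 stood apart from wildtype 1 and 2, with a chi-square per degree of freedom of 93.4 and 87.4 against 9.96 between those and 21.9 between the deleted libraries. None of the 12 pluripotency markers listed for the check of the cell type had a row under its symbol, so the labelled cell type was not checked. Over the 5 libraries the 7 oocyte markers with rows held 0 to 82 counts each, with Bmp15 and Gdf9 highest at 82 and 74 counts and Oosp1 at 0. Of the 7 immune markers with rows, Itgam held 2383 counts and Cd14 119, and the other 5 held 3 to 13.

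The stretches below are 240 bases that end 11 bases before the annotated start of each gene, from RefSeq on build GRCm38.p6, all on chromosome 7 and the plus strand. They are shown because the 3 genes have similar start regions and unlike counts. Nlrp4c (chr7:6044911-6045150) and Nlrp4a (chr7:26435364-26435603, the downstream of its annotated starts) were the most counted of the oocyte Nlrp genes with rows. Nlrp4b (chr7:10687543-10687782) had 0 counts in every library. Capitals mark CCAAT on either strand.
Nlrp4c: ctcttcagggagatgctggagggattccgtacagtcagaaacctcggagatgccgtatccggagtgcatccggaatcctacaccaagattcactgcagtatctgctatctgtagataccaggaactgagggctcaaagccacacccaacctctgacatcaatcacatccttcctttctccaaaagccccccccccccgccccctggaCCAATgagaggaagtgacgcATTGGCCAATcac
Nlrp4a: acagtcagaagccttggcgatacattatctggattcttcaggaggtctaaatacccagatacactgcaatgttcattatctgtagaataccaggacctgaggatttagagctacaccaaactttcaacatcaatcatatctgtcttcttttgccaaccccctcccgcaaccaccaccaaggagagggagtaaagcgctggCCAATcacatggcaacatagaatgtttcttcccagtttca
Nlrp4b: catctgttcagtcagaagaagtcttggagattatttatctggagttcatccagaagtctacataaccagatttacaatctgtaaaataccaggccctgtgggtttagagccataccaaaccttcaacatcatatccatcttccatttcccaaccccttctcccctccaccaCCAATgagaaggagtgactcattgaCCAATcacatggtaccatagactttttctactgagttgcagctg

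The Nlrp4a and Nlrp4c stretches were identical at 157 of 200 aligned bases (78.5%), and Nlrp4b and Nlrp4c at 158 of 198 (79.8%). Bases of each stretch that were left unaligned are not counted, so these shares do not cover the whole stretches. Among 32851 RefSeq windows of this length, those of Nlrp4a and Nlrp4b had the highest alignment scores to Nlrp4c after Nlrp4c itself, at 91.5 and 86.0. A second Nlrp4b window overlapping the first followed at 77.5. The next, of Gm33006, reached 28.5. CCAAT, searched on both strands, occurred 3 times in the Nlrp4c stretch, 1 time in that of Nlrp4a and 2 times in that of Nlrp4b. Of all windows, 33.0% held it at least once and 2.62% at least 3 times. The window of Nlrp9c, a gene with 41 counts in all, also held it 3 times. TAATTG, the sequence bound by the oocyte factor NOBOX, occurred in none of the 3 and in 2301 of the 32851 windows. CANNTG, the E-box that the oocyte factor FIGLA binds, occurred 0, 1 and 3 times in Nlrp4c, Nlrp4a and Nlrp4b, and in 65.0% of all windows. These matches describe letters and do not show binding.

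Nlrp4c was higher in the deleted cells. It held 368 and 366 counts in deleted 1 and 2, against 152, 132 and 222 counts in wildtype 1, 2 and 3, although each wildtype library was deeper. Scaled to library size, this was 3.94 and 3.69 CPM in the deleted libraries and 1.22, 1.16 and 1.03 CPM in the wildtype libraries. Both deleted libraries stood above all wildtype libraries, and the groups did not overlap. The mean was 3.82 ± 0.176 CPM over the deleted libraries (SD, n = 2) and 1.13 ± 0.0988 CPM over the wildtype libraries (SD, n = 3). The log2 fold change, deleted minus wildtype, was 1.76 ± 0.11, a fold of 3.38, where ± after a log2 fold change is its standard error (SE) throughout. Of 3591 tested symbols, 8.97% were at least 2-fold higher with an adjusted p under 0.05, and 102 had a log2 fold change at least as large (2.84%).

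Nlrp4a, its relative on the same chromosome, rose by a smaller amount. It held 379 and 408 counts in deleted 1 and 2, or 4.06 and 4.12 CPM, against 294, 266 and 586 counts in wildtype 1, 2 and 3, or 2.36, 2.33 and 2.71 CPM. The deleted libraries again stood above all wildtype libraries. The mean of the deleted libraries was 4.09 ± 0.0403 CPM (SD, n = 2) and that of the wildtype libraries 2.47 ± 0.212 CPM (SD, n = 3). This was 0.72 ± 0.10 on the log2 scale, a fold of 1.65 (edgeR quasi-likelihood test, Benjamini-Hochberg adjusted p = 0.00143). The threshold was an adjusted p under 0.05, which 39.5% of all 16259 tested genes and assembly IDs passed, 19.9% higher and 19.6% lower. Of the tested symbols 31.8% passed, 18.9% higher and 12.9% lower. In 32.8% of tested symbols both deleted libraries stood above all wildtype libraries, so groups that do not overlap were common in this comparison.

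Of the counts of both genes together, Nlrp4c held 49.3% in deleted 1 and 47.3% in deleted 2, with exact 95% binomial intervals of 45.6% to 52.9% and 43.7% to 50.9%. In wildtype 1, 2 and 3 it held 34.1%, 33.2% and 27.5%, with intervals of 29.7% to 38.7%, 28.6% to 38.0% and 24.4% to 30.7%. These intervals cover counting error only, since reads are not independent molecules. They may be too narrow even for that, since a read can count in more than 1 bin. Since Nlrp4c was chosen for its rise, these shares are a description. Nlrp4a and Nlrp4c together made up 98.5% to 99.4% of the counts of the 5 Nlrp4 symbols with rows in each library. Nlrp4d and Nlrp4f were not analysed here.

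**Figure D1:**
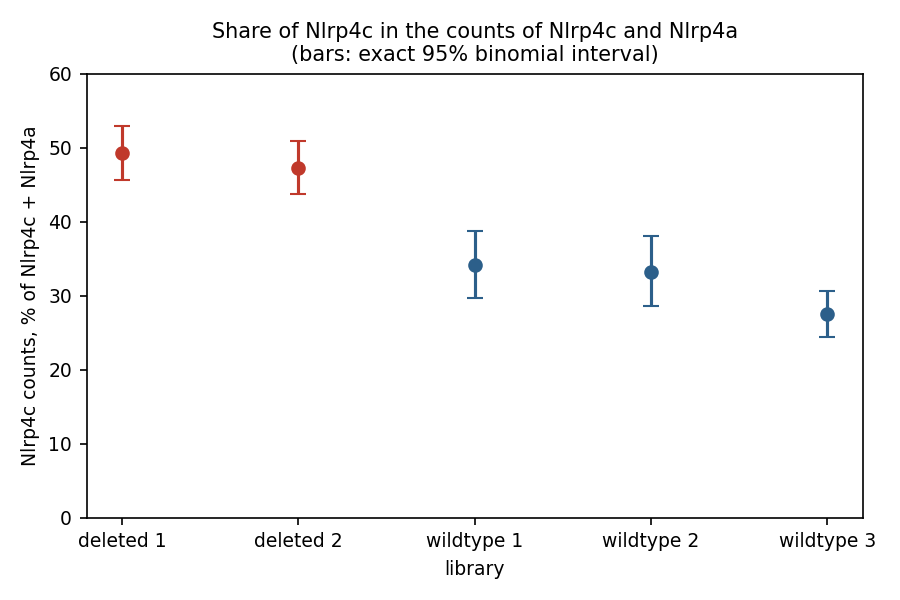
Counts of Nlrp4c as a percent of the counts of Nlrp4c and Nlrp4a in each library, with exact 95% binomial intervals. The deleted libraries sit at 49.3% and 47.3%, above the wildtype libraries at 34.1%, 33.2% and 27.5%.

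Within Nlrp4c the difference was spread along the gene. The table divides its exons into 10 bins, and all 10 had higher pooled CPM in the deleted than in the wildtype cells. The log2 ratios of pooled counts ran from 1.13 to 2.29 with a median of 1.78. In 9 of the 10 bins both deleted libraries stood above all wildtype libraries. Nlrp4c was chosen for its rise, so these bin counts are a description. The share of such bins over all genes was not computed. Bin 3 held 42.3% of all Nlrp4c counts, at 155 and 159 counts in deleted 1 and 2 against 65, 50 and 96 counts in wildtype 1, 2 and 3. Bin 5 had the highest ratio, a fold of 4.89, with 27 and 25 counts in the deleted libraries and 6, 7 and 12 counts in wildtype 1, 2 and 3. Bin 1, the bin where the groups overlapped, held 2 and 11 counts against 3, 6 and 5 counts. Without bin 3 the log2 ratio over the other bins was 1.74.

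In Nlrp4a, too, 1 bin held much of the counts, and the ratios were lower. Its bin 4 held 46.1% of the counts, with 192 and 188 counts in deleted 1 and 2 against 128, 124 and 260 counts in wildtype 1, 2 and 3. Of its 11 bins, 10 had a log2 ratio above 0 and 7 had both deleted libraries above all wildtype libraries. The ratios ran from −0.03 in bin 11 to 1.12 in bin 5, with a median of 0.59. Single bins were not tested, and no share over all bins was computed to set these counts against.

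**Figure D2:**
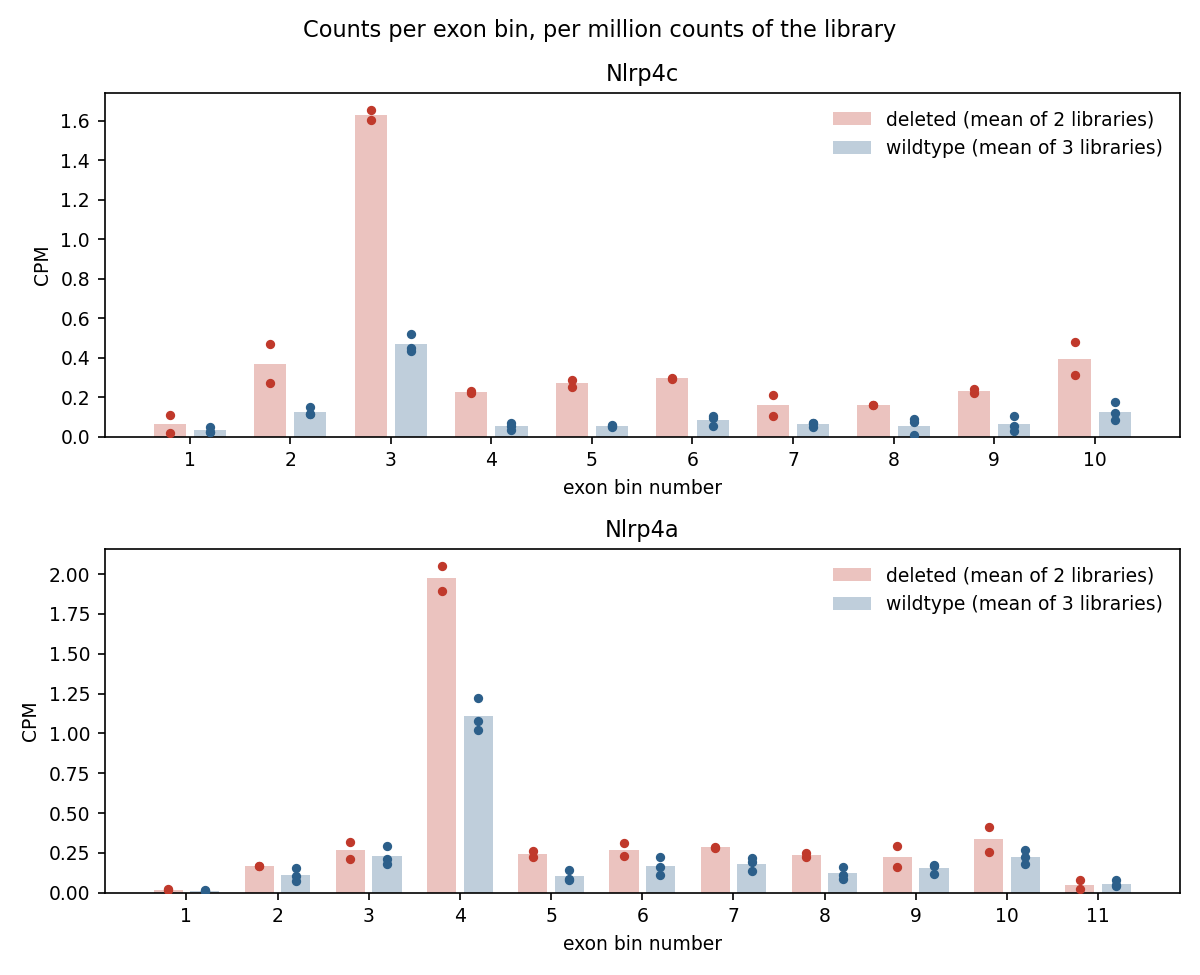
CPM (y axis) in each exon bin (x axis) of Nlrp4c and Nlrp4a; points are libraries and bars are group means. Bin 3 of Nlrp4c and bin 4 of Nlrp4a hold 42.3% and 46.1% of the counts, and deleted lies above wildtype in all 10 bins of Nlrp4c and in 10 of 11 bins of Nlrp4a.

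Copies of these genes resemble each other, which bears on how reads are assigned. Of the 50-base stretches in the GENCODE vM21 transcripts of Nlrp4c, 10.7% also occurred in transcripts of another gene, most often Nlrp4e (6.97%), and 0.91% in those of Nlrp4a. For Nlrp4a the share was 2.63% with any gene and 0.745% with Nlrp4c. Nlrp4e shared 36.7% of its stretches and Nlrp5-ps 46.6%, so counts of these are uncertain. How the authors' counting treated reads that match several places is not given in the sources used here.

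Nlrp4e, another oocyte gene of the cluster, had few counts and was not tested. It held 10 and 8 counts in deleted 1 and 2, or 0.107 and 0.0808 CPM, and 6, 6 and 5 counts in wildtype 1, 2 and 3, or 0.0482, 0.0525 and 0.0231 CPM. The deleted libraries stood above all wildtype libraries. The ratio of pooled counts, scaled to library size, was 2.50 with an exact 95% interval of 1.22 to 5.17, which covers counting error only. A read can count in more than 1 bin, so the interval may be too narrow even for counting error. The same holds for the intervals of the other pooled ratios. Nlrp4b, and Nlrp4g on chromosome 9, had 0 counts in all libraries, which allows up to 3 counts per library.

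Summed over its 5 symbols with rows, the Nlrp4 cluster stood at 8.11 and 7.89 CPM in deleted 1 and 2, against 3.63, 3.54 and 3.76 CPM in wildtype 1, 2 and 3. This was a fold of 2.20 between group means, and 1.67 with Nlrp4c left out. These sums were not tested.

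Of the Nlrp9 cluster, whose genes are also known from oocytes, the 2 symbols with rows held few counts. Nlrp9b was not analysed here, so this does not cover the whole cluster. Nlrp9c held 8 and 10 counts in deleted 1 and 2, or 0.0857 and 0.101 CPM, against 7, 5 and 11 counts in wildtype 1, 2 and 3, or 0.0563, 0.0438 and 0.0509 CPM. The deleted libraries stood above the wildtype ones, but the pooled ratio of 1.85 had an exact 95% interval of 0.941 to 3.58, so no difference was detectable at this depth by counting error alone. Nlrp9a held 7 counts in all. The sum of both was 0.0857 and 0.121 CPM in the deleted and 0.0563, 0.0613 and 0.0648 CPM in the wildtype libraries. The Nlrp4 sum thus exceeded the Nlrp9 sum in all 5 libraries, a comparison of counts that is not scaled to gene length.

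Genes of the subcortical maternal complex within the family were at or near the floor. Nlrp5, which encodes the MATER protein, held 3 and 1 counts in deleted 1 and 2 and 2, 4 and 3 counts in wildtype 1, 2 and 3. Nlrp2 held 0 and 0 counts against 2, 1 and 7 counts. The pseudogene Nlrp5-ps was measured more often, at 43 and 64 counts in the deleted and 60, 63 and 130 counts in the wildtype libraries. Its mean was 0.553 ± 0.131 CPM over the deleted libraries (SD, n = 2) and 0.545 ± 0.0599 CPM over the wildtype libraries (SD, n = 3). The groups overlapped, with a log2 difference of 0.014 ± 0.21 (edgeR adjusted p = 0.964). In the RefSeq annotation its span also holds Vmn1r90, with which 38.1% of its 50-base stretches are shared.

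Of the 4 members known from inflammasomes and somatic cells, Nlrp6 and Nlrp12 were tested and neither passed the threshold. Of all tested symbols 31.8% passed, so these few tests cannot set such members apart. Nlrp6, an inflammasome sensor known from intestinal epithelium, was the most counted of them. It stood at 2.33 and 2.23 CPM in deleted 1 and 2 against 2.44, 2.31 and 2.11 CPM in wildtype 1, 2 and 3, with the deleted values inside the wildtype range. Its log2 fold change was −0.0010 ± 0.11 (edgeR adjusted p = 0.995). Its bin 4 held 54.1% of the counts. Bin 3 of Nlrp6, singled out after its values were seen, held 0 and 3 counts in deleted 1 and 2 and 16, 7 and 13 counts in wildtype 1, 2 and 3.

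Nlrp12, known as a regulator of inflammatory signalling in myeloid cells, stood at 0.171 and 0.182 CPM in deleted 1 and 2 and at 0.177, 0.201 and 0.167 CPM in wildtype 1, 2 and 3. The groups overlapped, and the log2 fold change was −0.022 ± 0.27 (edgeR adjusted p = 0.979). In RefSeq, its span overlaps the Mir290a to Mir295 microRNA genes, a cluster known for its activity in embryonic stem cells, and 2.72% of its 50-base stretches match transcripts of other genes on either strand. No strand setting is stated, so reads of Nlrp12 and of the overlapping genes cannot be told apart.

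Nlrp10 and Nlrp1a were not tested. Nlrp10, which lacks the leucine-rich repeats of its relatives, held 7 and 4 counts in deleted 1 and 2 and 3, 7 and 12 counts in wildtype 1, 2 and 3, a pooled ratio of 1.18 (exact 95% interval 0.518 to 2.54). Nlrp1a, an inflammasome sensor of blood cells, held 3 and 2 counts against 4, 4 and 7 counts, all in its first bin. In CPM its deleted libraries stood marginally below all wildtype libraries, as in 24.2% of tested symbols, with a pooled ratio of 0.788 (exact 95% interval 0.224 to 2.28). Nlrp1b held 2 counts over the 5 libraries and Nlrp1c-ps 0. Of the 9 members, 5 had enough counts for a test and each of these 5 met the filter in the wildtype libraries alone. Of the 4 tested besides Nlrp4c, Nlrp4a was higher, and the 3 others, Nlrp6, Nlrp12 and Nlrp5-ps, did not pass. Among all tested symbols 31.8% passed and 18.9% were higher, so this count is near the share over all symbols.

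**Figure D3:**
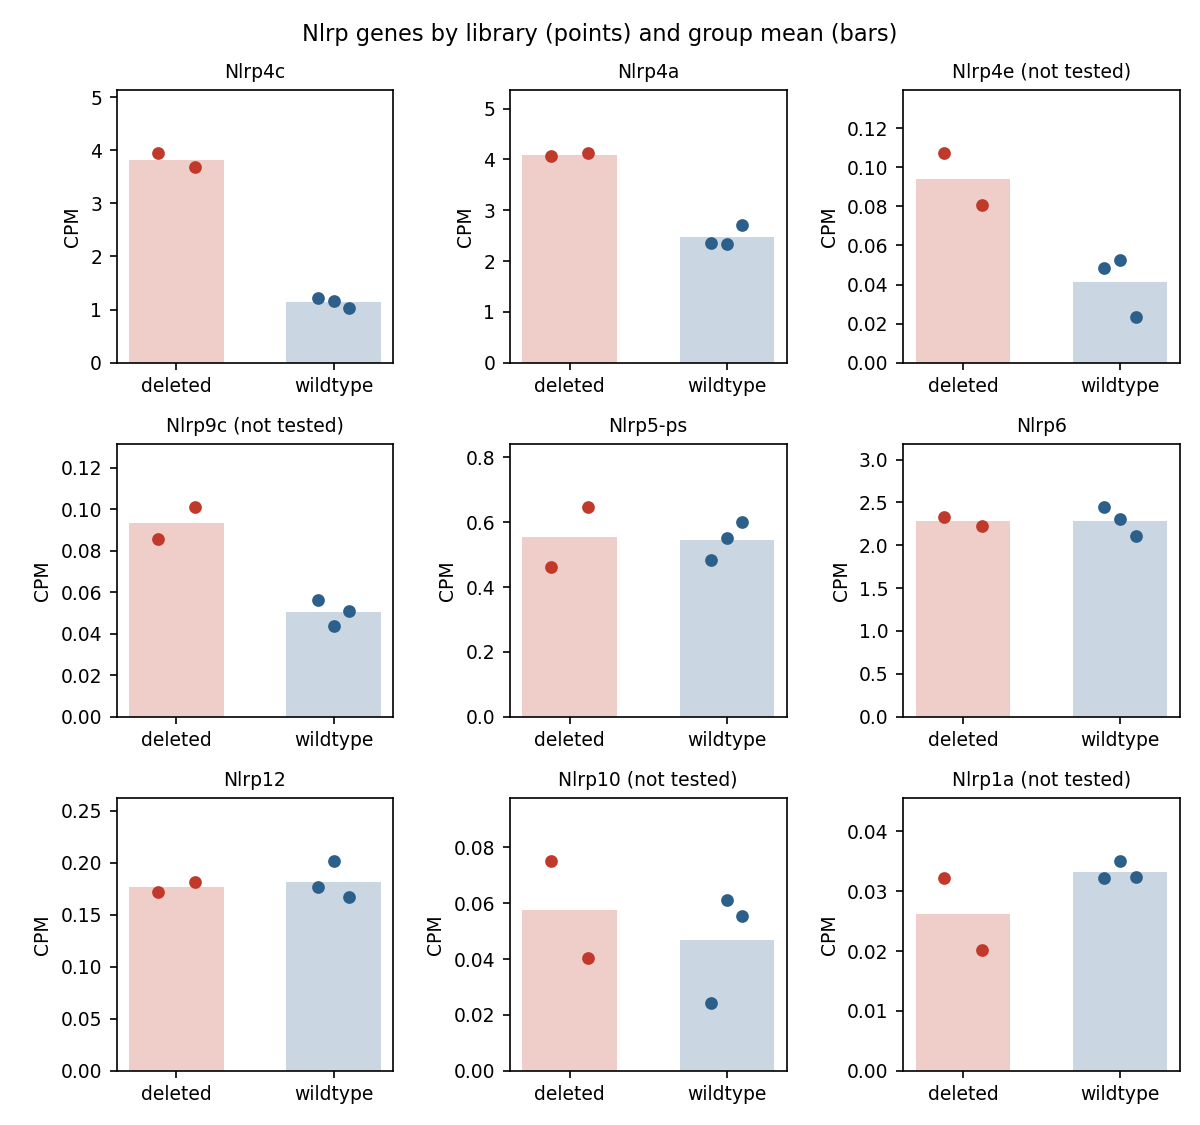
CPM in each library (points) and group mean (bars) for the 9 Nlrp genes, each panel with its own y axis from 0. Nlrp4c and Nlrp4a are higher in both deleted libraries than in all wildtype libraries, Nlrp4e and Nlrp9c likewise at under 0.11 CPM, and Nlrp6, Nlrp12, Nlrp5-ps and Nlrp10 overlap.

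Per kilobase of GENCODE vM21 exon, a scale on which genes can be ranked roughly, the order of levels differed between the groups. Nlrp4c was chosen for its rise, so its place in this order is a description. In the deleted libraries Nlrp4c was highest at 0.984 and 0.922 CPM per kilobase, followed by Nlrp4a at 0.839 and 0.851 and Nlrp6 at 0.458 and 0.439. In the wildtype libraries Nlrp4a came first at 0.488, 0.481 and 0.560 CPM per kilobase. Nlrp6 followed at 0.481, 0.455 and 0.414, touching the Nlrp4a range, and Nlrp4c came after it at 0.305, 0.288 and 0.256 CPM per kilobase. Nlrp5-ps was next in both groups, at 0.106 and 0.149 in the deleted and 0.111, 0.127 and 0.139 CPM per kilobase in the wildtype libraries. All other members stayed under 0.032 CPM per kilobase, and the ranges of Nlrp4e, Nlrp10, Nlrp9c and Nlrp1a overlapped in wildtype, as did those of Nlrp4e and Nlrp12 in the deleted libraries. The exon lengths come from GRCm38 and the counts from mm9, and a read can count in more than 1 bin. These levels and their order are therefore approximate.

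On chromosome 7, which holds 12 of the 16 Nlrp symbols with rows, the genes run in RefSeq order from Nlrp12, Nlrp2 and Nlrp4c through Nlrp4b, Nlrp5-ps, Nlrp4e and Nlrp5 to Nlrp9c, Nlrp4a and Nlrp9a, with Nlrp10 and Nlrp6 last. Nlrp4a thus stands between both Nlrp9 genes, which held 41 and 7 counts against 1933 for Nlrp4a. The nearest tested symbols beside Nlrp4c were Rasl2-9 and the zinc-finger gene Zscan5b, with 32 and 5 annotated genes between. Rasl2-9 had a log2 fold change of 0.25 ± 0.27 (edgeR adjusted p = 0.489) and Zscan5b one of 0.39 ± 0.13 (edgeR adjusted p = 0.0408). Its call ended when deleted 1, deleted 2, wildtype 1 or wildtype 2 was left out (edgeR adjusted p = 0.188, 0.136, 0.122 and 0.0852), under DESeq2 (adjusted p = 0.0921), with no low-count filter and in the most counted bin. Zscan5b stood at 1.32 and 1.26 CPM in deleted 1 and 2 and at 0.924, 0.989 and 1.02 CPM in wildtype 1, 2 and 3.

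Beside Nlrp4a, the cytochrome gene Cyp2a4 had a log2 fold change of 0.49 ± 0.43 (edgeR adjusted p = 0.409) and the kinase gene Hipk4, 41 annotated genes away, was lower at −1.69 ± 0.44 (edgeR adjusted p = 0.0181). Hipk4 met the low-count filter only through the wildtype libraries, where it was high. Leaving out deleted 1 or deleted 2 ended the Hipk4 call (edgeR adjusted p = 0.0615 and 0.133). Beside Nlrp6, Ifitm5, a bone gene of the interferon-induced transmembrane family, was lower at −1.16 ± 0.19 (edgeR adjusted p = 0.00283). On the other side Caly was higher at 1.29 ± 0.39 (edgeR adjusted p = 0.0317), a call that ended without deleted 1, deleted 2 or wildtype 3 (edgeR adjusted p = 0.0956, 0.193 and 0.0688), and that DESeq2 did not make (adjusted p = 0.0725). Tarm1 beside Nlrp12 and Sult2a4 and Obox6 beside Nlrp5-ps did not pass (edgeR adjusted p = 0.845, 0.770 and 0.786). Between Caly, Tarm1, Sult2a4 and Obox6 and their Nlrp genes lay 51, 19, 11 and 56 annotated genes.

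Of the partners of the inflammasome, none was higher, 2 were lower and 1 did not pass, where 12.9% of all tested symbols were lower. Of 26 listed genes, 12 had rows, 4 of them, among them Casp1 and Il1b, at 0 counts, and 3 were tested. Naip5, the sensor of bacterial flagellin, fell to 0.171 and 0.172 CPM in deleted 1 and 2, against 0.555, 0.464 and 0.398 CPM in wildtype 1, 2 and 3. Its log2 fold change was −1.44 ± 0.26 (edgeR adjusted p = 0.00394), and the call ended when its most counted bin alone was tested (−1.15; edgeR adjusted p = 0.0671). P2rx7, the ATP-gated channel upstream of NLRP3, stood at 1.74 and 2.03 CPM against 2.27, 2.50 and 2.67 CPM and was lower at −0.40 ± 0.12 (edgeR adjusted p = 0.0355). The P2rx7 call ended without deleted 1, deleted 2 or wildtype 2 (edgeR adjusted p = 0.227, 0.0606 and 0.0782) and in its most counted bin (edgeR adjusted p = 0.166). Il33, an alarmin, had 0.24 ± 0.34 (edgeR adjusted p = 0.616). The median log2 fold change of the 3 was −0.40, against 0.07 over all tested symbols. The immune marker Itgam was also lower, at 2.68 and 2.93 CPM in the deleted and 3.87, 3.96 and 4.21 CPM in the wildtype libraries, while the other 6 immune markers with rows held 3 to 119 counts in all. The 7 summed to 2.81 and 3.09 CPM in the deleted and 4.24, 4.21 and 4.43 CPM in the wildtype libraries, and Itgam alone made up most of each sum. The part of such cells in the lower values was not tested, and fewer cells of a type and less RNA per cell cannot be told apart in bulk RNA.

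Of the NLR genes outside the Nlrp group, 5 of 7 were tested. Their median log2 fold change was 0.37, with 1 higher, 0 lower and 4 that did not pass. This share is near the 18.9% of all tested symbols that were higher. Nlrc5, the activator of MHC class I genes, stood at 0.611 and 0.777 CPM in deleted 1 and 2 against 0.273, 0.298 and 0.324 CPM in wildtype 1, 2 and 3. The groups did not overlap, and the log2 fold change was 1.20 ± 0.20 (edgeR adjusted p = 0.00242). The peptidoglycan sensors Nod2 and Nod1 had 0.49 ± 0.22 and −0.12 ± 0.14 (edgeR adjusted p = 0.109 and 0.546), and the mitochondrial protein gene Nlrx1 had 0.37 ± 0.18 (edgeR adjusted p = 0.138).

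Other oocyte genes showed no common direction. Of 36 oocyte factors and genes of the subcortical maternal complex, 25 had rows and 6 were tested. Of these 6, 0 passed, where 31.8% of all tested symbols passed. The median log2 fold change of the 6 was 0.10. Among them Tle6, a subunit of the complex, had 0.10 ± 0.13 (edgeR adjusted p = 0.589), the RNA-binding protein gene Ybx2 0.26 ± 0.14 (0.170), the oocyte transcription factor gene Sohlh1 −0.42 ± 0.37 (0.408) and the histone chaperone gene Npm2 −0.47 ± 0.57 (0.549). None of these 6 had an unadjusted edgeR p under 0.05. DESeq2 gave adjusted p of 0.311 or more for 5 of them, and its value for Padi6 was not kept. Of 14 zona and secreted genes, 12 had rows and 4 were tested, with a median of −0.08. Of these 4, 1 was higher and 3 did not pass, where 18.9% of all tested symbols were higher. Bmp15, an oocyte growth factor gene, held 20 and 27 counts in deleted 1 and 2 against 10, 9 and 16 counts in wildtype 1, 2 and 3, a log2 fold change of 1.65 ± 0.30 (edgeR adjusted p = 0.00407). It met the low-count filter only through the deleted libraries, so it could be tested only because it was high there. Its partner Gdf9 had −0.19 ± 0.39, Bcl2l10 −0.36 ± 0.33 and the oviduct gene Ovgp1 0.02 ± 0.46 (edgeR adjusted p = 0.736, 0.434 and 0.981).

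**Figure D4:**
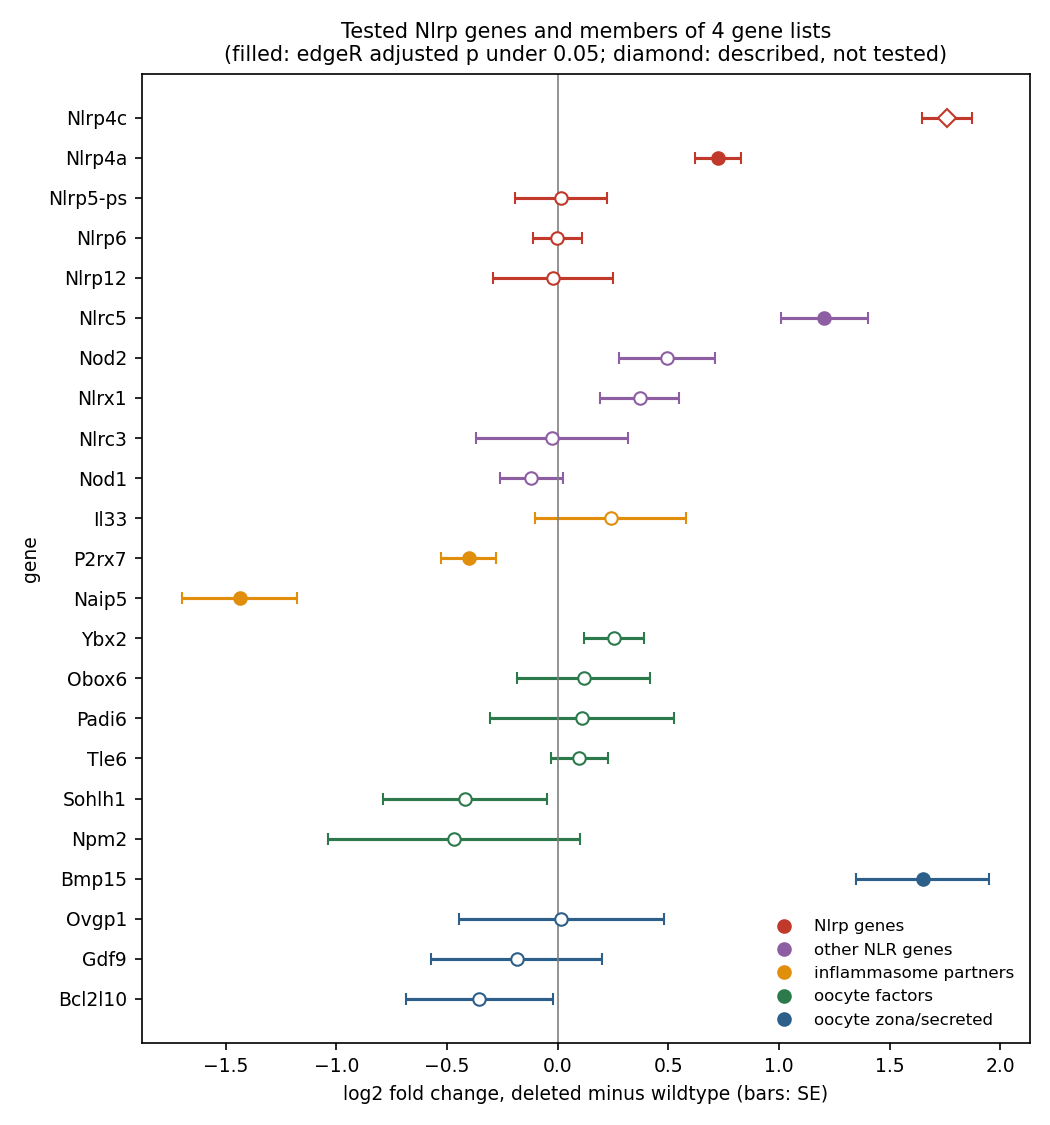
Log2 fold change, deleted minus wildtype, with SE (x axis) for the tested Nlrp genes and the tested members of 4 gene lists (y axis); filled circles passed edgeR adjusted p under 0.05 and the diamond, Nlrp4c, is a description. Nlrp4c at 1.76 and Nlrp4a at 0.72 lie to the right, Nlrp6, Nlrp12 and Nlrp5-ps lie within 0.03 of 0, and Naip5 lies lowest at −1.44.

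Markers of 2-cell-like cells, a small share of cultured stem cells with genes of the 2-cell embryo, moved beside the Nlrp4 genes. Of 21 listed markers, 17 had rows, 11 were tested and 11 were higher, where 18.9% of all tested symbols were higher. Of these 11, 5 met the low-count filter only through the deleted libraries. The markers were listed with earlier results of these data known, so this count is a description and not a test. Their summed level was 17.6 and 17.2 CPM in deleted 1 and 2 and 3.09, 3.26 and 2.97 CPM in wildtype 1, 2 and 3, and Tcstv1 and Tcstv3 were at 0 counts in all libraries. The 7 oocyte markers with rows summed to 0.418 and 0.495 CPM in the deleted and 0.257, 0.280 and 0.319 CPM in the wildtype libraries. Of these, Bmp15 alone stood at 0.214 and 0.273 CPM against 0.0804, 0.0788 and 0.0740 CPM. Bmp15 met the low-count filter only through the deleted libraries. The other tested oocyte marker, Gdf9, did not pass, at −0.19 on the log2 scale (edgeR adjusted p = 0.736). The 8 fibroblast markers with rows summed to 11.7 and 11.8 CPM against 8.39, 8.90 and 11.1 CPM, with Dcn, Lum and Postn at 3, 1 and 1 counts in all. Of the 4 fibroblast markers tested, Col1a2 and Pdgfrb were higher, at 0.92 and 0.49 on the log2 scale (edgeR adjusted p = 0.00610 and 0.0117), and Col1a1 and Fbn1 did not pass. The part of such cells in the Nlrp4c and Nlrp4a values was not tested.

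The 5 genes whose pattern over the 5 libraries was most like that of Nlrp4c were Trim47, C130026I21Rik, Lpcat2, Usp17le and C1ra, of 3586 tested symbols outside the family. Likeness was the root-mean-square difference of log2 CPM after centring each gene on its own mean, and it was 0.06 for Trim47 and 0.12 for C1ra. Trim47 stood at 2.75 and 2.53 CPM in deleted 1 and 2 and at 0.916, 0.866 and 0.699 CPM in wildtype 1, 2 and 3. Usp17le, one of the 2-cell markers, stood at 0.536 and 0.444 CPM against 0.137, 0.114 and 0.106 CPM. C130026I21Rik met the low-count filter only through the deleted libraries, so it could be ranked only because it was high there. With 5 libraries in 2 groups, this measure mostly ranks genes by their group difference.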

How the data were processed

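The deposited table holds whole-number counts of reads in each exon bin for 5 libraries. Per the submitters' processing notes, STAR and the mouse build mm9 were used, while annotation, versions and strand setting are not stated. The bin names follow DEXSeq, whose counting gives a read to each bin it touches, so gene sums can exceed the number of reads. Bins were summed per gene without the 56 spike-in names. After the filterByExpr filter, 16259 genes entered edgeR's quasi-likelihood test with TMM scaling (R 4.3.3, edgeR 4.0.16, limma 3.58.1), with Benjamini-Hochberg adjustment and a threshold of 0.05. CPM of genes use TMM-scaled library sizes, and CPM of bins the plain totals. The fit was tested on simulated data. Promoter stretches are from RefSeq, aligned with Biopython 1.88. Exon lengths and transcripts are from GENCODE vM21. Both use GRCm38 while the counts use mm9, so coordinates are given only for the promoter stretches.

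Members and lists were chosen with earlier results of these data known. Named are all members, up to 4 tested genes per list by p, the nearest tested symbol on each side of a tested member, and the 5 symbols most like Nlrp4c. Symbols hold 0.328% to 0.375% of counts, and assembly IDs, which the table does not pair with symbols, hold the rest. Nlrp3, Nlrp4d, Nlrp4f, Nlrp9b and Nlrp14 were not analysed here. Alternatives were RLE scaling, other filters, DESeq2 1.42.0, the most counted bin, a replicate block and leaving out each library.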

Additional observations from a re-analysis of the deposited data

How the results depend on the processing

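Nlrp4c and Nlrp4a kept their direction in all 11 alternatives, at log2 fold changes of 1.67 to 1.83 and 0.68 to 0.85, and Nlrp4a passed in each (edgeR or DESeq2 adjusted p = 1.48e-06 to 0.0214). Nlrp5-ps, Nlrp6 and Nlrp12 passed in none of their 11, with edgeR or DESeq2 adjusted p of 0.481 or more. The count of called Nlrp genes besides Nlrp4c was 1 in each. Leaving out 1 library at a time gave 3206 to 8282 called genes (6421 with all libraries), with 3206 without deleted 1 and 3864 without deleted 2, where the lone deleted library is assumed to vary like the wildtype ones. Of these, 1674 to 4146 were higher (3242 with all) and 1532 to 4136 lower (3179 with all), and 329 to 749 symbols were higher (679 with all). From the most counted bin alone 386 symbols were higher. The log2 ratio of the Nlrp9 sum was 0.50 to 0.995 over the libraries left out (0.77 with all), an alternative chosen after seeing the data.

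Signs near 0 turned when a library was left out. The log2 fold change ran from −0.10 to 0.048 for Nlrp12, −0.27 to 0.23 for Nlrp5-ps, −0.070 to 0.033 for Nlrp6, −0.0043 to 0.41 for Il33, −1.65 to 0.17 for Npm2, −0.025 to 0.19 for Tle6, −0.74 to 0.21 for Gdf9, −0.46 to 0.34 for Ovgp1, −0.85 to 0.33 for Tarm1, −0.47 to 0.095 for Sult2a4 and −0.075 to 0.27 for Obox6. With no low-count filter Nlrp5-ps had −0.0074 and Ovgp1 −0.016. Ovgp1 also had −0.039 with DESeq2 and −0.27 with the replicate block. In the most counted bin Nlrp6 had 0.077 and Il33 −0.23, and the calls of Naip5 and P2rx7 ended (edgeR adjusted p = 0.0671 and 0.166). None of the 11 genes whose sign turned was called in any alternative, and the cause was not tested.

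Both groups share the replicate numbers 1 and 2. Deviations of same-numbered libraries from their group means correlated at 0.054 for number 1 and −0.054 for number 2. With 2 deleted libraries their deviations are mirror images, so these values cannot show whether the numbers pair libraries. The main fit used no replicate block. With the replicate block 8250 genes passed, against 6421 without it. The call of Caly ended with the replicate block (0.96; edgeR adjusted p = 0.106). Depth limits Nlrp4e, Nlrp9c, Nlrp10 and Nlrp1a, at 20 to 41 counts over all libraries.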
